A study of Mus musculus with 16 samples.

Results

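Amino acid transporters are the membrane proteins that carry amino acids and related compounds into and out of cells and lysosomes. They were taken here as the protein-coding genes whose symbol begins with Slc1a, Slc3a, Slc6a, Slc7a, Slc36a, Slc38a or Slc43a and that had at least 10 counts in at least 4 libraries, a choice that used the counts of all conditions together. Slc6a14 met it through the libraries with IL-1β, where it is high, so its differences between libraries with and without IL-1β are described without a test. The counts of called members below still include it for these differences, and its part in them is no support for a change. Of 64 protein-coding genes with such symbols among the 52636 genes of the count table, 49 were kept, with 13 from the Slc6 family, 12 from Slc7, 11 from Slc38, 5 from Slc1, 3 each from Slc36 and Slc43, and 2 from Slc3. Slc7a6os carries the symbol of its neighbour Slc7a6 and is not a transporter, and it is given below as such. The lowest members were Slc36a2 and Slc6a13, with 1 to 11 and 4 to 12 counts per library, and Slc6a20a, Slc6a12 and Slc7a13 were just outside, with highest counts of 17, 11 and 10.

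The libraries came from islets of male mice aged 12 weeks, labelled as strain C57BL/6JRj, whereas the methods of the study give C57BL/6NRj. Intact islets were cultured for 10 days in medium with human serum and were left unexposed (control), or exposed to 50 pg/mL recombinant mouse IL-1β, to 0.2 mM sodium butyrate, or to both. IL-1β is a cytokine of inflammation, butyrate a fermentation product of the gut microbiota, and the comparisons address how butyrate acts on islets and on their response to IL-1β. Each condition had 4 libraries of RNA from 500 islets each, read as counts per gene, and the islets of a library were pooled, so a replicate is a culture and not a mouse.

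Amino acid transport has a special place in the pancreatic beta cell. Cationic amino acids such as arginine depolarise the cell as they enter, leucine and glutamine feed glutamate dehydrogenase and the mitochondria, and cystine uptake supplies glutathione. Many transporters of the Slc7 family work only as a pair with a heavy chain of the Slc3 family, which brings them to the plasma membrane. Several transporter genes are textbook targets of ATF4, the transcription factor of the amino acid response, and leucine and arginine supply is read by the kinase complex mTORC1.

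A library had 18635943 to 25955943 counts. Levels are CPM, the counts of a gene per unit of TMM-scaled library size, and fold changes are log2 values with a standard error (SE) from edgeR's quasi-likelihood test over 18587 genes. A gene was called at an adjusted p under 0.01. The islet label was borne out by marker genes, the 10 beta cell markers summing to 215300 to 238100 CPM in control islets and 7 alpha cell markers to 21280 to 24410 CPM. These sums moved with the conditions. The beta cell sum was 138400 to 180000 CPM in the IL-1β libraries and 138600 to 170900 CPM in those of both agents (8 of 10 markers lowered and 1 raised against control in each). The control ranges of the 11 macrophage and 8 duct markers, 132.3 to 144.7 and 483.6 to 515.5 CPM, compare with 193.1 to 244.4 CPM (10 raised, 1 lowered) and 674.8 to 772.5 CPM (4 raised of 7 tested) under IL-1β. The 4 delta cell markers summed to 1696 to 1995 CPM in control islets and 2395 to 2775 CPM under butyrate (1 raised, 3 not called). Endothelial, fibroblast, acinar and neural markers summed to at most 20.1, 20.8, 39.0 and 338.2 CPM in any library. The part of these shifts in the values below was not tested, and in RNA from whole islets fewer cells of a type and less RNA per cell cannot be told apart.

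Between genes, levels were compared as CPM per kb of exon. In control islets 16 of the 48 transporters were at 10 CPM per kb or more and 22 were under 1, and the 10 highest held 83.2% of the summed level. Slc38a4, a sodium-coupled carrier of neutral and cationic amino acids, was the highest at 102.8 ± 4.65 CPM per kb (mean ± SD, n = 4), followed by its relative Slc38a10 (86.5 ± 2.48), the cationic transporter Slc7a2 (75.6 ± 3.69), the leucine transporter light chain Slc7a5 (74.5 ± 1.83) and its heavy chain Slc3a2 (71.5 ± 1.63). The libraries of Slc38a4, Slc38a10 and Slc7a2 followed each other without overlap, while those of Slc7a2 and Slc7a5, and of Slc7a5 and Slc3a2, overlapped. Slc7a14, Slc38a5, the taurine transporter Slc6a6, Slc7a8 and Slc38a2 completed the 10, each overlapping its neighbour except between Slc3a2 and Slc7a14 and between Slc7a8 and Slc38a2. The order changed with butyrate: Slc7a5 was first at 99.8 ± 1.61 CPM per kb with butyrate and 88.1 ± 2.43 with IL-1β plus butyrate, and Slc38a4 was at 67.2 ± 3.46 and 75.0 ± 5.00. The glutamate transporters Slc1a1, Slc1a2 and Slc1a3, and the carriers of GABA (Slc6a11, Slc6a13), serotonin (Slc6a4) and glycine in neurons (Slc6a5), were all under 1 CPM per kb in control islets.

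**Figure D1:**
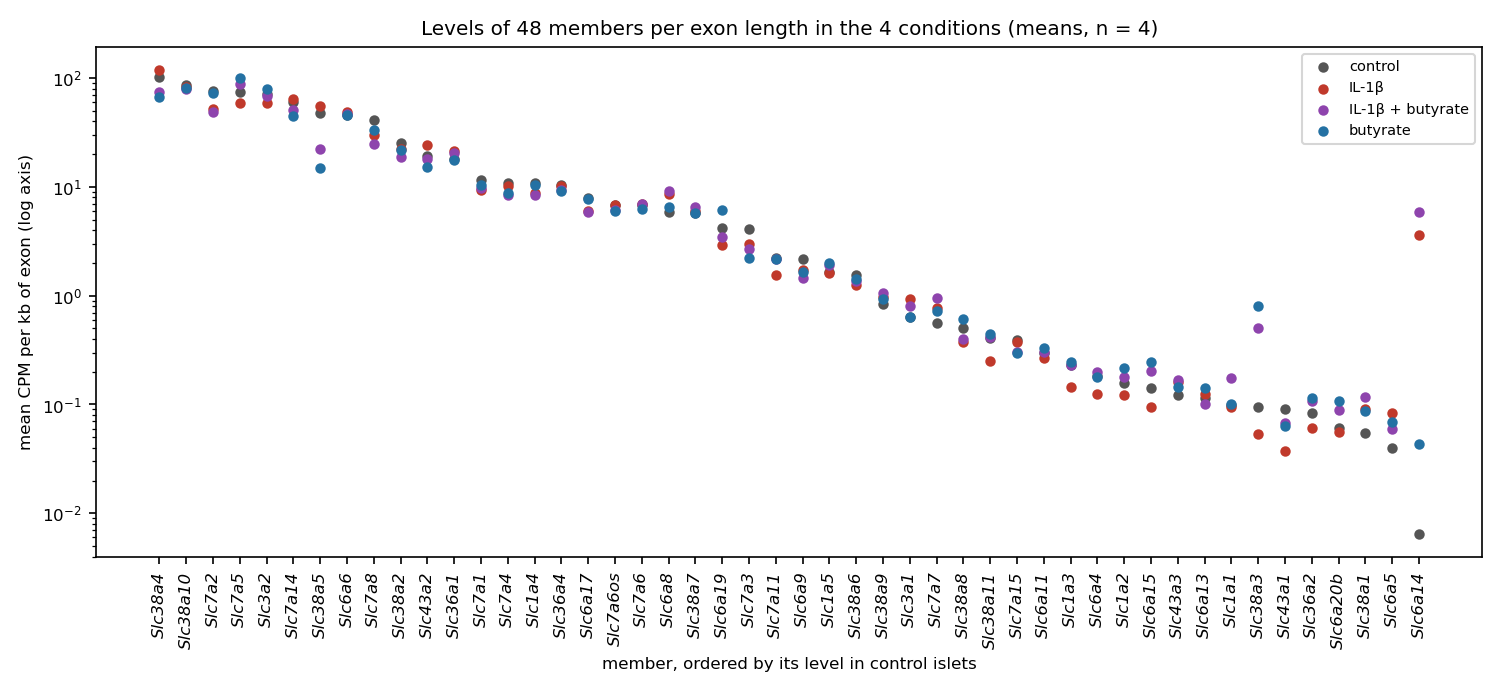
Mean level of 48 members in CPM per kb of exon (log axis, n = 4 libraries per condition), ordered by the level in control islets. Slc38a10 held the same rank in all 4 conditions, Slc38a5 fell from 47.6 to 14.95 with butyrate, Slc38a3 went from 0.095 to 0.797, and Slc6a14, under the floor of 3 counts per library in control islets, was at 3.61 with IL-1β and 5.94 after both agents.

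Over the 48 members that could be tested (Slc36a2 fell under the filter on low counts), IL-1β upregulated 5, Slc6a14 among them, and downregulated 11 against control, where 11.2% of all genes were called upregulated and 6.59% downregulated. Scaled by library size alone the split was 6 and 8. Butyrate alone upregulated 5 and downregulated 11, Slc7a6os among the 11 (8.53% and 11.4% of all genes). Without control replicate 3 or without butyrate replicate 4, 10 rather than 16 were called. Butyrate added to IL-1β upregulated 6 and downregulated 7 against IL-1β alone (8.41% and 11.1% of all genes), and IL-1β plus butyrate upregulated 9, again with Slc6a14, and downregulated 11 against control (15.8% and 14.8%). As shares, 22.9% of the members were downregulated and 10.4% upregulated by IL-1β, the first above and the second near the share of all genes, without a test of either. The 10.4% includes Slc6a14. The members' median log2 fold changes were -0.10, 0.00, 0.06 and -0.03 in these 4 comparisons, beside -0.03, 0.01, 0.01 and 0.00 over all genes. The members' median absolute log2 fold changes were 0.31, 0.26, 0.26 and 0.34, beside 0.17, 0.18, 0.18 and 0.21 over all genes, without a test. In all, 28 members were called at least once, Slc6a14 and the non-transporter Slc7a6os among them. Most called changes were under 2-fold: 1, 2, 3 and 4 of the called members differed by 2-fold or more. Neither of these counts was taken over all genes. The 1 with IL-1β was Slc6a14, which was also among the 4 with both agents against control.

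**Figure D2:**
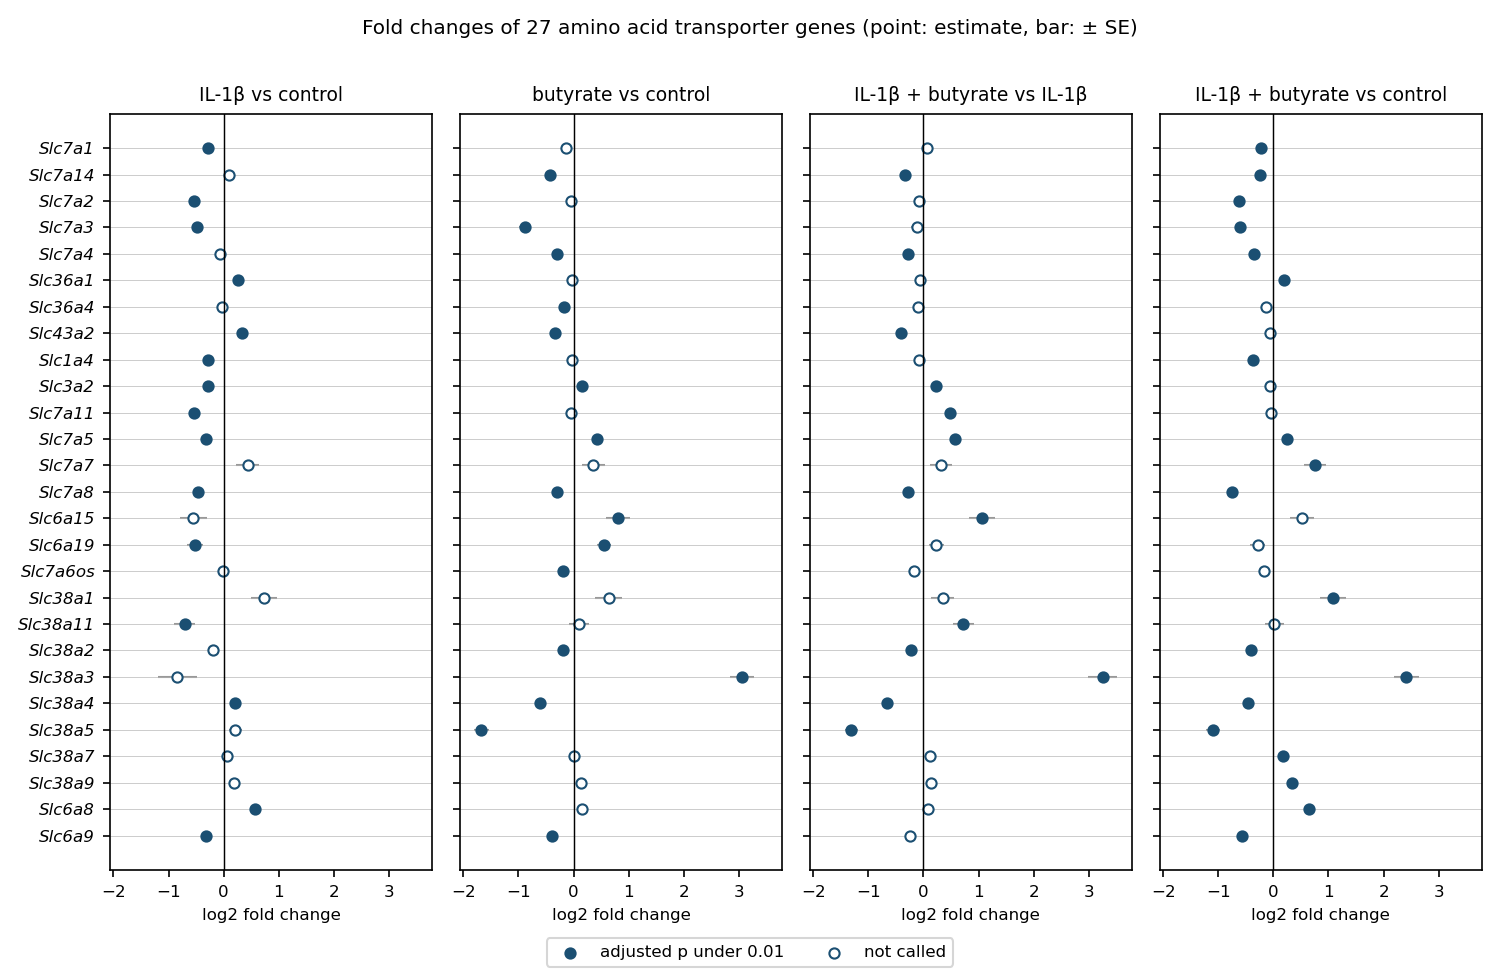
Log2 fold change (point) ± SE (bar) of 27 members called in at least 1 of the 4 comparisons, in groups of related function; filled points passed an adjusted p under 0.01. Slc6a14 is left out because its control level was under the floor. The largest changes are those of Slc38a3 (2.41 to 3.26 in the 3 comparisons with butyrate) and Slc38a5 (-1.10 to -1.67).

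Among the heteromeric transporters, IL-1β lowered the heavy chain and 3 of its light chains, and butyrate raised the heavy chain and Slc7a5 whether or not IL-1β was present. Slc3a2 (ENSMUSG00000010095, chromosome 19, 8706882 to 8723369, GRCm38) encodes the CD98 heavy chain that carries these light chains to the membrane. Its CPM were 249, 257, 258 and 246 in control islets, 212, 213, 204 and 198 with IL-1β, 238, 240, 253 and 238 with both agents, and 273, 277, 289 and 281 with butyrate. Every IL-1β library was below every other library, and every butyrate library above them. The log2 fold change was -0.29 (SE 0.04, adjusted p = 4.2e-06) with IL-1β, 0.15 (SE 0.04, adjusted p = 0.0066) with butyrate and 0.23 (SE 0.04, adjusted p = 0.00011) with butyrate added to IL-1β. The call for butyrate alone was lost without any 1 of the 4 control or 4 butyrate libraries and with no filter on low counts (adjusted p 0.01 to 0.059).

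Slc7a5 (ENSMUSG00000040010, chromosome 8, 121881150 to 121907694) encodes LAT1, the exchanger of leucine and other large neutral amino acids. Its CPM were 283, 278, 276 and 267 in control islets, 232, 216, 210 and 222 with IL-1β, 331, 313, 333 and 330 with both agents, and 370, 374, 362 and 375 with butyrate. The 4 conditions did not overlap, in the order IL-1β, control, IL-1β plus butyrate, butyrate. IL-1β lowered Slc7a5 1.25-fold (log2 -0.33, SE 0.04, adjusted p = 7.7e-07), butyrate raised it 1.34-fold (log2 0.42, SE 0.04, adjusted p = 1.6e-08), and butyrate added to IL-1β raised it 1.48-fold (log2 0.57, SE 0.04, adjusted p = 1.1e-10) to 1.18-fold above control (log2 0.24, SE 0.04, adjusted p = 3.1e-05).

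Slc7a8 (ENSMUSG00000022180, chromosome 14, 54722209 to 54781946) encodes LAT2, the other light chain for large and small neutral amino acids, and it went the opposite way from Slc7a5 under butyrate. Its CPM were 217, 192, 216 and 199 in control islets, 158, 135, 147 and 157 with IL-1β, 126, 113, 129 and 124 with both agents, and 167, 165, 161 and 173 with butyrate. The 4 conditions again did not overlap, with control islets highest and IL-1β plus butyrate lowest. The log2 fold change was -0.46 (SE 0.05, adjusted p = 1.3e-07) with IL-1β, -0.31 (SE 0.05, adjusted p = 6.5e-05) with butyrate, -0.28 (SE 0.05, adjusted p = 0.0002) with butyrate added to IL-1β and -0.75 (SE 0.05, adjusted p = 1e-11) with both against control, a 1.68-fold decrease.

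Slc7a11 (ENSMUSG00000027737, chromosome 3, 49892526 to 50443614) encodes xCT, which exchanges cystine for glutamate. Its CPM were 32.6, 29.2, 30.1 and 32.6 in control islets, 26.8, 18.8, 21.3 and 19.4 with IL-1β, 31.7, 30.7, 28.2 and 29.8 with both agents, and 27.1, 27.9, 31.5 and 33.5 with butyrate. The IL-1β libraries were all below the others, which overlapped. IL-1β lowered it 1.45-fold (log2 -0.54, SE 0.09, adjusted p = 6.5e-05) and butyrate added to IL-1β raised it 1.40-fold (log2 0.49, SE 0.09, adjusted p = 0.0002), with no call for butyrate alone (log2 -0.05, 95% interval -0.22 to 0.12).

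Slc7a7, the light chain that exports cationic amino acids and is also active in macrophages, was low, ranging over 1.15 to 2.66 CPM in the control libraries and 2.46 to 3.86 CPM in those of both agents, and it was raised in that comparison alone (log2 0.75, SE 0.20, adjusted p = 0.0032) although the libraries overlapped. The call was lost without control replicate 3, control replicate 4 or IL-1β plus butyrate replicate 1 (adjusted p 0.015 to 0.021), and 7.0% of its exons overlapped those of Oxa1l. The 11 macrophage markers summed to 104.2 to 144.8 CPM in the libraries of both agents, where 8 of them were raised and 1 lowered against control, and their part in this value was not tested. Slc7a6, the remaining widely expressed light chain (28.2 to 33.0 CPM in control islets), was called in no comparison, nor were Slc3a1, the heavy chain of the cystine transporter, and Slc7a15.

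Promoter sequences from RefSeq (GRCm38.p6, from 250 bases before to 50 after the start) were at hand for 36 of the 49 members. The amino acid response element to which ATF4 binds was searched as TGATGNAA on both strands, and 3 of the 36 held it, Slc7a11, Slc1a4 and Slc7a7, beside 3.97% of all 32851 promoters. The promoter of Slc7a11 is shown because it held the element on each strand, starting 66 and 47 bases before the start, with the 2 matches in capitals (chr3:50443564-50443863, minus strand):
Slc7a11: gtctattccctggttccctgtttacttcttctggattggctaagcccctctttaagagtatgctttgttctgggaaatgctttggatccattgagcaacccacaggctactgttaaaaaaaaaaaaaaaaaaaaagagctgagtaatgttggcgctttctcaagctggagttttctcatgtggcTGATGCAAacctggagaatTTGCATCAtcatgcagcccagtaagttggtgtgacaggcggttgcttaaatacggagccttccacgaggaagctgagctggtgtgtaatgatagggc

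The cationic amino acid transporters and their relatives were the group most uniformly lowered: 3 of 5 fell with IL-1β, 3 of 5 with butyrate, 2 of 5 when butyrate was added to IL-1β, and 5 of 5 with both agents against control (median log2 -0.35). Of all genes, 6.59%, 11.4%, 11.1% and 14.8% were called downregulated in these 4 comparisons, and the groups of members were not tested against these shares. Scaled by library size alone, Slc7a1 and Slc7a14 lost the call with both agents against control (adjusted p 0.026 for Slc7a1) and all 5 kept its direction. Slc7a1 and Slc7a2 encode the arginine and lysine transporters CAT1 and CAT2, Slc7a3 the related CAT3, and Slc7a4 and Slc7a14 proteins of the same branch.

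Slc7a2 (ENSMUSG00000031596, chromosome 8, 40862396 to 40922308) had 696, 654, 734 and 680 CPM in control islets, 518, 424, 496 and 454 with IL-1β, 432, 449, 488 and 427 with both agents, and 663, 702, 658 and 658 with butyrate. The conditions fell into 2 ranges that did not overlap, those without IL-1β from 654 to 734 CPM and those with it from 424 to 518, as did the beta cell marker sum, whose part was not tested. IL-1β lowered Slc7a2 1.46-fold (log2 -0.55, SE 0.06, adjusted p = 1.7e-08), and butyrate was not called either alone (log2 -0.04, 95% interval -0.15 to 0.07) or with IL-1β (log2 -0.07, 95% interval -0.19 to 0.04). Of its exons, 7.0% overlapped those of Gm26584, and whether reads were counted by strand is not given in the sources used here.

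Slc7a1 (ENSMUSG00000041313, chromosome 5, 148327410 to 148399904) had 141, 123, 135 and 132 CPM in control islets, 118, 98, 108 and 109 with IL-1β, 116, 114, 114 and 110 with both agents, and 122, 121, 118 and 123 with butyrate. The control libraries were above all others, the lowest of them, 123.2 CPM, by little above the highest with butyrate, 122.8 CPM. It was lowered by IL-1β (log2 -0.29, SE 0.05, adjusted p = 6.2e-05) and by both agents against control (log2 -0.22, SE 0.05, adjusted p = 0.00072), and butyrate added to IL-1β left a difference of 0.07 (95% interval -0.03 to 0.17).

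Slc7a3, on chromosome X, ranged from 13.6 to 18.0 CPM in control islets, 10.2 to 13.03 with IL-1β, 8.37 to 11.7 with both and 7.94 to 9.59 with butyrate. It was lowered 1.85-fold by butyrate alone (log2 -0.89, SE 0.10, adjusted p = 2.6e-07) and 1.39-fold by IL-1β (log2 -0.48, SE 0.10, adjusted p = 0.00055), while butyrate added to IL-1β gave -0.12 (SE 0.10, adjusted p = 0.39). Slc7a4 and Slc7a14 followed butyrate rather than IL-1β. Slc7a14 went from 550 to 676 CPM in control islets to 414 to 465 with butyrate (log2 -0.43, SE 0.07, adjusted p = 2.2e-05), and Slc7a4 from 42.8 to 46.5 CPM to 34.8 to 39.0 (log2 -0.29, SE 0.06, adjusted p = 0.00024). Both were also lowered when butyrate was added to IL-1β (log2 -0.34 for Slc7a14 and -0.28 for Slc7a4), and neither was called with IL-1β alone. For both agents against control, the call of Slc7a14 was lost without control replicate 1, IL-1β plus butyrate replicate 3 or replicate 4 (adjusted p 0.011 to 0.021) and with library-size scaling (0.024).

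**Figure D3:**
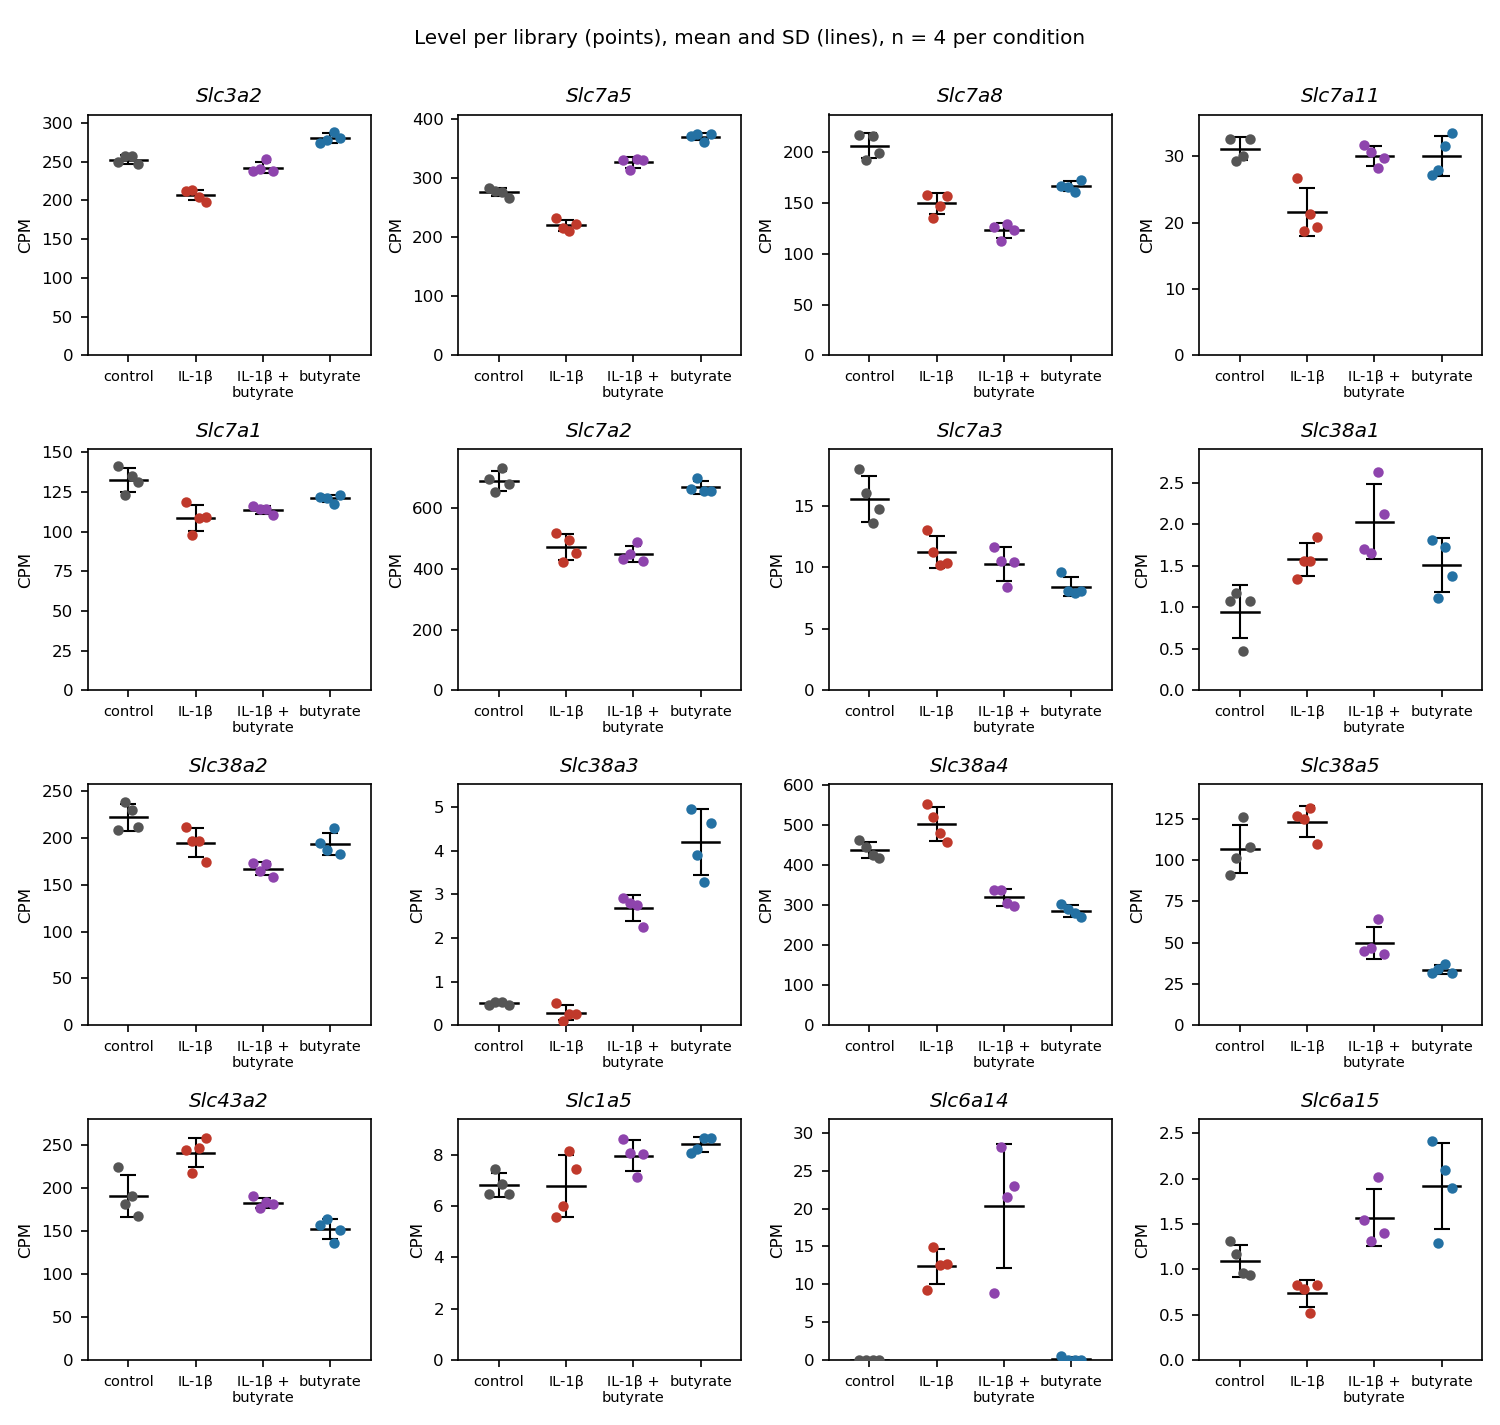
CPM of 16 members in each library (points), with the mean and SD (lines) of the 4 libraries of each condition; each axis starts at 0. Slc7a2 separates by IL-1β, Slc38a5 and Slc38a3 by butyrate, Slc7a5 and Slc7a8 by all 4 conditions, and Slc6a14 is near 0 in the 8 libraries without IL-1β. Slc7a3, Slc38a4 and Slc43a2 were added to the plot after their values were seen.

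The sodium-coupled neutral amino acid transporters of the Slc38 family held the largest changes with butyrate, in opposite directions for Slc38a3 and Slc38a5, which encode the glutamine transporters SNAT3 and SNAT5. Slc38a5 (ENSMUSG00000031170, chromosome X, 8271133 to 8280179) was at 91.3, 101, 126 and 108 CPM in control islets, 127, 125, 132 and 110 with IL-1β, 45.0, 46.9, 64.0 and 43.0 with both agents, and 31.4, 34.2, 37.0 and 31.4 with butyrate. All 8 libraries with butyrate were below all 8 without it. Butyrate lowered Slc38a5 3.18-fold in control islets (log2 -1.67, SE 0.13, adjusted p = 3.3e-07) and 2.48-fold in islets with IL-1β (log2 -1.31, SE 0.12, adjusted p = 2.6e-06), and IL-1β alone gave 0.21 (SE 0.12, adjusted p = 0.23). Slc38a5 is known in the mouse islet as a gene of alpha cells. Of the 7 alpha cell markers, 4 were lowered by butyrate in either setting (Gc, Irx1, Irx2 and Ttr) and Gcg, which encodes glucagon, was at 21530 CPM in control islets and 20000 CPM with butyrate (log2 -0.11, SE 0.07, adjusted p = 0.3). With IL-1β present butyrate raised Gcg (log2 0.25, SE 0.07, adjusted p = 0.0087). The part of alpha cells in the value of Slc38a5 was not tested.

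Slc38a3 (ENSMUSG00000010064, chromosome 9, 107650634 to 107669530) was low in control islets, at 0.467, 0.542, 0.525 and 0.471 CPM, and at 0.517, 0.0974, 0.259 and 0.253 CPM with IL-1β. It reached 2.92, 2.80, 2.76 and 2.26 CPM with IL-1β plus butyrate and 4.97, 3.91, 3.29 and 4.64 CPM with butyrate. The libraries with butyrate were all above those without it. Butyrate raised Slc38a3 8.31-fold (log2 3.06, SE 0.22, adjusted p = 6.5e-11), and 9.56-fold in the presence of IL-1β (log2 3.26, SE 0.26, adjusted p = 4.8e-10). Per kb of exon it was still at 0.797 CPM with butyrate, below the 14.95 CPM of Slc38a5 in the same libraries.

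The promoter of Slc38a5 is shown as that of the member most strongly lowered by butyrate (chrX:8271131-8271430, plus strand, with its RefSeq start 248 bases from the start of the GENCODE gene). The capitals mark 2 GC boxes (GGGCGG, held on either strand by 25 of 36 members and 35.66% of all promoters) and 1 E box (CACGTG, held by 5 of 36 members and 7.15% of all promoters):
Slc38a5: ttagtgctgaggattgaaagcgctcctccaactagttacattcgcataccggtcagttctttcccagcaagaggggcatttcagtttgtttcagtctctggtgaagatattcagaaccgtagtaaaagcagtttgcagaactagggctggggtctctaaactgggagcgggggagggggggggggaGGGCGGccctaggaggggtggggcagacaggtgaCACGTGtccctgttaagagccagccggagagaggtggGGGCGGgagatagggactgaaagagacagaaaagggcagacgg

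Slc38a2 (ENSMUSG00000022462, chromosome 15, 96687392 to 96699730) encodes SNAT2, the amino acid transporter best known for its induction when amino acids are short. It had 208, 239, 229 and 212 CPM in control islets, 212, 196, 197 and 175 with IL-1β, 173, 164, 172 and 159 with both agents, and 194, 187, 210 and 183 with butyrate. The libraries with both agents were below those of every other condition, and the other 3 conditions overlapped. The log2 fold change was -0.41 (SE 0.06, adjusted p = 1.3e-06) with both against control, -0.20 (SE 0.06, adjusted p = 0.0089) with butyrate and -0.22 (SE 0.06, adjusted p = 0.0038) with butyrate added to IL-1β. The call for butyrate alone was lost in 10 of 24 alternatives, among them without control replicates 2 or 3, IL-1β replicate 3, IL-1β plus butyrate replicate 3 or butyrate replicates 1, 2 or 4 (adjusted p 0.01 to 0.048), and the last call without IL-1β replicate 1 or IL-1β plus butyrate replicate 4 (up to 0.011) and with upper-quartile scaling (0.016). With IL-1β alone it was -0.19 (SE 0.06, adjusted p = 0.014), a call in 5 of 24 alternatives, among them the replicate block and leaving out control replicate 1 or IL-1β replicate 1 (adjusted p 0.0006 to 0.0071 over the 5).

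Slc38a4, on chromosome 15 near Slc38a2, was at 418 to 463 CPM in control islets, 458 to 554 with IL-1β, 297 to 338 with both and 269 to 304 with butyrate. It was lowered by butyrate 1.53-fold (log2 -0.61, SE 0.06, adjusted p = 5.8e-09) and, added to IL-1β, 1.57-fold (log2 -0.65, SE 0.06, adjusted p = 2.2e-09), and raised by IL-1β (log2 0.20, SE 0.06, adjusted p = 0.0094). The control and IL-1β libraries overlapped, and the rise was lost in 9 of 24 alternatives, among them without control replicates 2, 3 or 4, IL-1β replicates 1 or 2, or butyrate replicates 2 or 3 (adjusted p 0.012 to 0.041).

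Slc38a1 (ENSMUSG00000023169, chromosome 15, 96571418 to 96642913) encodes SNAT1, a glutamine transporter of neurons and dividing cells. Its CPM were 1.07, 1.17, 0.478 and 1.07 in control islets, 1.34, 1.56, 1.55 and 1.84 with IL-1β, 1.71, 1.66, 2.63 and 2.12 with both agents, and 1.81, 1.11, 1.72 and 1.38 with butyrate. The libraries with both agents were above all control libraries. It was raised 2.11-fold in that comparison (log2 1.08, SE 0.23, adjusted p = 0.00045), and it missed the threshold with IL-1β (log2 0.73, SE 0.24, adjusted p = 0.025) and with butyrate alone (log2 0.64, SE 0.25, adjusted p = 0.05).

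Slc38a11, at 0.931 to 1.16 CPM with IL-1β and 1.53 to 2.46 CPM in the other conditions, was lowered by IL-1β (log2 -0.71, SE 0.19, adjusted p = 0.0066) and raised by butyrate added to it (log2 0.73, SE 0.19, adjusted p = 0.0048). The first call was lost without control replicates 1, 2 or 3 or any of the 4 IL-1β libraries, among 10 of 24 alternatives (adjusted p up to 0.028), and the second without IL-1β replicates 1, 2 or 3 or IL-1β plus butyrate replicates 1, 2 or 4, among 7 of 24 (up to 0.017). Slc38a7 and Slc38a9, carriers of the lysosome of which the second senses arginine for mTORC1, were raised in the comparison of both agents with control alone, Slc38a9 by 0.33 (SE 0.09, adjusted p = 0.0043) from 12.6 to 15.2 CPM to 14.7 to 19.4 CPM, and Slc38a7 by 0.18 (SE 0.06, adjusted p = 0.0093). Slc38a9 lost its call without control replicates 2 or 3 or IL-1β plus butyrate replicates 2, 3 or 4 (adjusted p up to 0.023), and Slc38a7 in 13 of 24 alternatives, among them without any of the 4 libraries with both agents, control replicates 1, 2 or 3, IL-1β replicates 1, 3 or 4 or butyrate replicate 3 (up to 0.036).

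In the Slc6 family, Slc6a14 (ENSMUSG00000031089, chromosome X, 21714896 to 21742355) encodes a sodium- and chloride-coupled transporter of neutral and cationic amino acids with a very broad range of substrates. It had 0, 1, 1 and 0 counts in the control libraries and 10, 0, 1 and 1 with butyrate, against 180, 306, 243 and 353 with IL-1β, and 218, 662, 493 and 478 after both agents. In CPM these were at most 0.0478 in control islets, 9.31, 14.9, 12.6 and 12.7 with IL-1β, and 8.85, 28.1, 21.6 and 23.0 with both. Every library with IL-1β was far above every library without it. Against the floor of 3 counts in each control library, Slc6a14 was at least 92.3-fold higher with IL-1β and at least 151.9-fold higher with both agents. Butyrate added to IL-1β gave a log2 difference of 0.71 (SE 0.29, 95% interval 0.14 to 1.28, adjusted p = 0.087), and without IL-1β plus butyrate replicate 1, the lowest of its condition, 0.95 (adjusted p = 0.00068). The macrophage and duct marker sums were also higher in IL-1β libraries than in control libraries, by less than Slc6a14. With both agents the macrophage sum was 104.2 to 144.8 CPM (control 132.3 to 144.7), although 8 of the 11 markers were raised and 1 lowered. The duct sum with both agents was 672.2 to 967.5 CPM (control 483.6 to 515.5). The part of these cells in the value of Slc6a14 was not tested.

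The bases around the start of Slc6a14 are shown because it was the member most strongly raised by IL-1β (chrX:21714650-21714949, plus strand). They held none of the 4 motifs searched, including GGANTTTCC, a form of the NF-κB site held by 0 of 36 members and 1.25% of all promoters, which says only that these letters are not in this window:
Slc6a14: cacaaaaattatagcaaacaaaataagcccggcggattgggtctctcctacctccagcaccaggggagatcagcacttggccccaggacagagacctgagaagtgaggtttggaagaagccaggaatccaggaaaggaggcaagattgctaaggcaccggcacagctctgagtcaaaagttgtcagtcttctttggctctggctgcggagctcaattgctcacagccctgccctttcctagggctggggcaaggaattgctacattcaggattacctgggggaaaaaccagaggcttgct

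Slc6a15 (ENSMUSG00000019894, chromosome 10, 103367783 to 103419377) encodes a sodium-coupled transporter of branched chain amino acids and proline. Its CPM were 1.31, 1.17, 0.956 and 0.942 in control islets, 0.827, 0.779, 0.518 and 0.830 with IL-1β, 1.54, 1.32, 2.02 and 1.40 with both agents, and 2.41, 1.29, 2.09 and 1.89 with butyrate. The libraries with both agents were above all those with IL-1β alone. Butyrate raised it 2.10-fold there (log2 1.07, SE 0.24, adjusted p = 0.0011) and 1.74-fold without IL-1β (log2 0.80, SE 0.22, adjusted p = 0.0062), where control and butyrate libraries overlapped. The second call was lost without control replicates 2, 3 or 4 or butyrate replicates 1, 3 or 4 and with no filter on low counts (adjusted p 0.01 to 0.033).

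Slc6a19, which carries neutral amino acids in gut and kidney and needs a partner such as Cltrn to reach the membrane, was at 17.6 to 22.9 CPM in control islets, 28.5 to 33.0 with butyrate, 10.7 to 16.2 with IL-1β, 14.2 to 21.6 with both. Butyrate raised it (log2 0.55, SE 0.13, adjusted p = 0.004) and IL-1β lowered it (log2 -0.52, SE 0.14, adjusted p = 0.0097). The first call was lost without control replicates 1 or 3 or butyrate replicates 3 or 4 (adjusted p up to 0.015). The second was lost in 16 of 24 alternatives, 13 of them without 1 library (each but control replicate 1 and IL-1β plus butyrate replicates 1 and 3), with an adjusted p of up to 0.033. Cltrn itself was raised by IL-1β from 691.9 ± 35.4 to 1017 ± 106 CPM (log2 0.56, SE 0.07, adjusted p = 2.4e-06) and was not called with butyrate. Cltrn falls outside the naming rule and was chosen after its values were seen.

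The creatine transporter Slc6a8 was raised by IL-1β from 29.1 to 31.7 CPM to 41.2 to 48.6 CPM (log2 0.56, SE 0.06, adjusted p = 4.2e-08) and was at 45.0 to 53.5 CPM with both agents (log2 0.65, SE 0.06, adjusted p = 1.6e-09). The glycine transporter Slc6a9 was lowered by butyrate (log2 -0.39, SE 0.08, adjusted p = 0.00048), by both agents (log2 -0.57, SE 0.08, adjusted p = 2.3e-06) and by IL-1β (log2 -0.32, SE 0.08, adjusted p = 0.0037). The last call was lost without control replicates 3 or 4 or IL-1β replicates 1, 2 or 3 (adjusted p up to 0.02), with no filter on low counts and with library-size scaling (0.035), and 30.2% of the exons of Slc6a9 overlapped B4galt2, Ccdc24 or Gm17114. Slc6a17, a vesicular transporter of neurons, had 66.1 to 92.0 CPM in control islets and 50.8 to 68.8 with both agents (log2 -0.43, SE 0.14, adjusted p = 0.022), a call in 4 of 24 alternatives, among them the replicate block and leaving out control replicate 1. The taurine transporter Slc6a6 was at 360 to 433 CPM over all 16 libraries and was not called. With IL-1β it was 0.11 on the log2 scale (SE 0.05, adjusted p = 0.086), and scaled by library size alone 0.17, a call (adjusted p = 0.0077).

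Among the facilitated and proton-coupled transporters, Slc43a2 and Slc36a1 were raised by IL-1β. Slc43a2, which lets large neutral amino acids leave the cell, was at 167 to 225 CPM in control islets, 218 to 258 with IL-1β, 176 to 190 with both and 136 to 164 with butyrate. It rose with IL-1β (log2 0.34, SE 0.07, adjusted p = 0.0013), although 1 control library lay within the IL-1β range, and it was lowered by butyrate without (log2 -0.33, SE 0.07, adjusted p = 0.0016) and with IL-1β (log2 -0.40, SE 0.07, adjusted p = 0.00024). Slc36a1, the proton-coupled transporter of the lysosome and plasma membrane, rose from 97.98 to 106 CPM to 114 to 130 CPM with IL-1β (log2 0.26, SE 0.05, adjusted p = 0.00025) and by 0.20 with both agents (SE 0.05, adjusted p = 0.0022), the latter not without control replicate 4 or IL-1β plus butyrate replicate 1 (up to 0.017). Slc36a4 fell by 0.18 on the log2 scale with butyrate (SE 0.05, adjusted p = 0.0059), a call lost without control replicates 3 or 4 or butyrate replicates 1, 2 or 4 (up to 0.038) and with upper-quartile scaling.

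In the Slc1 family, Slc1a4, the exchanger ASCT1 of alanine, serine and cysteine, fell with IL-1β from 41.3 to 43.2 CPM to 33.2 to 35.8 CPM (log2 -0.28, SE 0.05, adjusted p = 5.4e-05) and was at 31.4 to 34.3 CPM with both agents (log2 -0.36, SE 0.05, adjusted p = 8.1e-07), with no call for butyrate. Slc1a5 (ENSMUSG00000001918, chromosome 7, 16781340 to 16798274), the glutamine exchanger ASCT2, had 6.49, 7.46, 6.88 and 6.46 CPM in control islets, 5.58, 5.99, 8.14 and 7.43 with IL-1β, 8.61, 8.06, 7.14 and 8.04 with both, and 8.09, 8.22, 8.67 and 8.65 with butyrate. The butyrate libraries were above all control libraries and the other conditions overlapped. None of its differences passed the threshold, the nearest being butyrate against control at 0.30 (SE 0.10, 95% interval 0.10 to 0.50, adjusted p = 0.028).

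Of the 28 members called, 3 were called in all 4 comparisons: Slc7a5, Slc7a8 and Slc38a4. Butyrate raised 4 members both without and with IL-1β (Slc38a3, Slc3a2, Slc6a15, Slc7a5) and lowered 7 in both settings (Slc38a2, Slc38a4, Slc38a5, Slc43a2, Slc7a4, Slc7a14, Slc7a8). These 11 were 68.8% of the members that butyrate alone changed and 84.6% of those it changed with IL-1β, the 2 comparisons share no library, and 0 members were called in opposite directions. The same shares were not taken over all genes, of which 0.0968% were called for a difference between the 2 butyrate effects. The agreement is therefore not read as a trait of the members. In its presence butyrate lowered Slc38a4 and Slc43a2, which IL-1β had raised, and raised Slc3a2, Slc7a5, Slc7a11 and Slc38a11, which IL-1β had lowered. Both of these comparisons use the IL-1β libraries. Slc7a1, Slc7a2 and Slc1a4 were lowered, and Slc6a8 and Slc36a1 raised, by IL-1β and by both agents against control, and were not called for butyrate in either setting. Slc6a14 was also higher with IL-1β and with both agents, which is described without a test, and was not called for butyrate in either setting.

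The difference between the effects of butyrate with and without IL-1β was called by edgeR, without a replicate block, for 0 of 48 members, where 0.0968% of all genes were called. At an unadjusted p under 0.05 there were 7 members, and DESeq2 called 2. The nearest was Slc7a3, at 0.77 (SE 0.15, adjusted p = 0.017), called in 7 of 24 alternatives, which were the replicate block, DESeq2, library-size scaling, no filter on low counts, and leaving out control replicate 3, IL-1β replicate 1 or IL-1β plus butyrate replicate 3 (adjusted p 5.8e-07 to 0.0094 over the 7). It was followed by Slc7a11 at 0.54 (SE 0.12, adjusted p = 0.083), called in 3 of 24, 1 of them without IL-1β replicate 1 (2.5e-06 to 0.01 over the 3). For Slc38a5 the difference was 0.36 (SE 0.18, adjusted p = 0.71) and for Slc38a3 it was 0.20 (SE 0.38, adjusted p = 0.97).

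**Figure D4:**
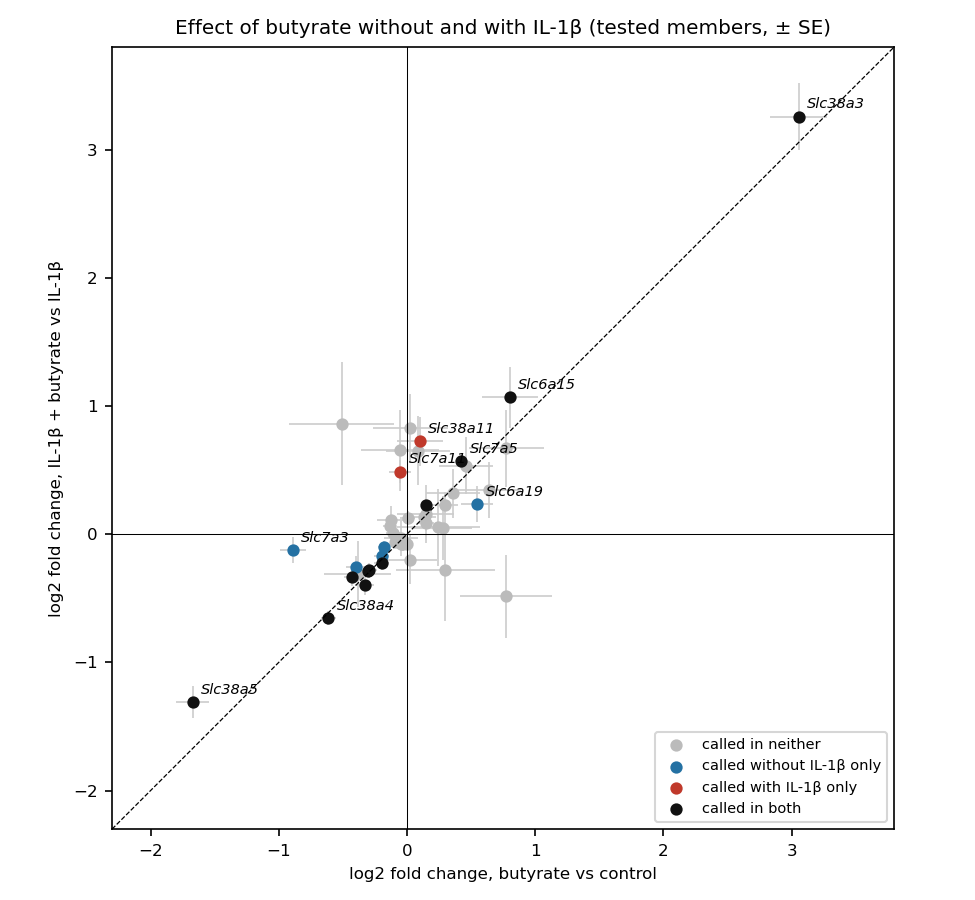
Log2 fold change of tested members with butyrate in control islets (x axis) and in islets with IL-1β (y axis), ± SE, with the dashed line marking equal effects. The 11 members called in both settings (black) lie on the same side of 0 on both axes, from -1.67 and -1.31 for Slc38a5 to 3.06 and 3.26 for Slc38a3, and Slc7a3, Slc38a11 and Slc7a11 lie farthest off the line among the members called in 1 of the 2 settings. Slc6a14 is left out because control and butyrate islets had 10 counts or fewer.

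The 20 members called in no comparison included Slc1a1, Slc1a2, Slc1a3, Slc1a5, Slc3a1, Slc6a4, Slc6a5, Slc6a6, Slc6a11, Slc6a13, Slc6a17, Slc6a20b, Slc7a6, Slc7a15, Slc38a6, Slc38a8, Slc38a10, Slc43a1 and Slc43a3. Their log2 differences ranged from -1.31 (Slc43a1 with IL-1β) to 1.04 (Slc6a5 with IL-1β), and both of these genes were under 1 CPM in every condition on average. The nearest to the threshold was the glutamate transporter Slc1a1 with both agents against control (log2 0.81, SE 0.27, adjusted p = 0.016), a call in 3 of 24 alternatives, 2 of them without IL-1β replicate 1 or IL-1β plus butyrate replicate 3 (adjusted p 0.0048 to 0.0098 over the 3). Of its exons, 31.9% overlapped 4430402I18Rik. Of the exons of Slc6a20b, 21.1% overlapped those of Sacm1l, and how reads were divided between it and its close paralog Slc6a20a was not tested. Slc38a10, a high member at 497 to 568 CPM over all libraries, differed by 0.06 to 0.12 on the log2 scale. Slc7a6os, which is no transporter, fell by 0.20 with butyrate (SE 0.06, adjusted p = 0.0081), a call lost in 9 of 24 alternatives, 7 of them without any of the 4 control libraries or butyrate replicates 2, 3 or 4 (adjusted p up to 0.033) and the highest adjusted p with upper-quartile scaling (0.051).

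Genes around the transporters were read from lists of the amino acid response, of sensing and of metabolism. Over all genes, 11.2% were called upregulated and 6.59% downregulated with IL-1β, and 8.53% and 11.4% with butyrate. With butyrate added to IL-1β the shares were 8.41% and 11.1%, and with both agents against control 15.8% and 14.8%. The counts of every list below stand beside these shares and were not tested against them. Of 25 amino acid response genes, 13 were lowered and 1 raised by IL-1β (median log2 -0.22, beside -0.03 over all genes), 4 lowered and 1 raised by butyrate, 2 lowered and 5 raised by butyrate added to IL-1β, and 7 lowered and 3 raised by both agents against control. The following genes of this list are outside the naming rule and were chosen after their values were seen. Atf4 itself was at 362 ± 36.7 CPM in control islets and 312.8 ± 18.9 with IL-1β (log2 -0.21, SE 0.06, adjusted p = 0.0085). The serine synthesis gene Phgdh fell from 59.2 ± 3.82 to 37.8 ± 4.89 CPM with IL-1β (log2 -0.65, SE 0.08, adjusted p = 7.5e-07). Butyrate lowered Phgdh as well, alone (log2 -0.68, SE 0.08, adjusted p = 6.1e-07) and added to IL-1β (log2 -0.28, SE 0.08, adjusted p = 0.0098). Chac1, a textbook ATF4 target, was lowered by IL-1β (log2 -0.41, SE 0.07, adjusted p = 0.00012), and raised by butyrate without (log2 0.29, SE 0.07, adjusted p = 0.0031) and with IL-1β (log2 0.40, SE 0.07, adjusted p = 0.00018). Chac1 was the only gene of the list called raised by butyrate alone, and the 4 lowered were Phgdh, Psph, Eif4ebp1 and Psat1.

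Of 32 genes that sense amino acids for mTORC1, 1 rose and 3 fell with IL-1β (11.2% and 6.59% of all genes). With butyrate 4 rose and 4 fell (8.53% and 11.4% of all genes). Castor1, an arginine sensor, went from 0.539 ± 0.195 CPM in control islets to 1.29 ± 0.105 with butyrate (log2 1.26, SE 0.26, adjusted p = 0.00058) and 1.80 ± 0.301 with both (log2 1.74, SE 0.25, adjusted p = 2.3e-06). Castor2, of the same list, is outside the naming rule and was chosen after its values were seen. It was far higher, at 464.9 CPM in control islets. Butyrate lowered Castor2, alone to 330.8 CPM (log2 -0.49, SE 0.07, adjusted p = 8.4e-06) and added to IL-1β (log2 -0.41, SE 0.07, adjusted p = 8.1e-05). With both agents against control it was also lowered (log2 -0.53, SE 0.07, adjusted p = 1.3e-06). Of 19 genes of arginine and polyamine metabolism, 4 rose and 1 fell with IL-1β. The risers were Odc1, the first enzyme of polyamine synthesis (78.7 ± 3.56 to 284.6 ± 23.97 CPM, log2 1.85, SE 0.07, adjusted p = 1.6e-16), Sat1, which acetylates polyamines (14.1 ± 1.77 to 35.1 ± 3.74 CPM), Ass1, which remakes arginine from citrulline (3.36 ± 0.796 to 8.50 ± 0.331 CPM), and the inducible nitric oxide synthase Nos2 (0.0346 to 1.85 CPM). Butyrate added to IL-1β lowered Ass1 (log2 -0.93, SE 0.15, adjusted p = 3e-05) and Nos2 (to 0.207 CPM) and raised Odc1 further, to 395.3 ± 27.4 CPM (log2 0.47, SE 0.06, adjusted p = 3.8e-06), and it raised Ddah2, which breaks down inhibitors of nitric oxide synthases, to 2.58 ± 0.442 CPM (log2 1.32, SE 0.23, adjusted p = 6.7e-05).

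Of 18 genes of glutamine and glutamate metabolism, 3 rose and 4 fell with IL-1β, 2 rose and 5 fell with butyrate in either setting, and 3 rose and 4 fell with both agents against control. There Gad2, which makes GABA, fell from 1.11 ± 0.326 to 0.499 ± 0.254 CPM (log2 -1.12, SE 0.34, adjusted p = 0.0086). Gad1, which also makes GABA, is outside the naming rule and was chosen after its values were seen. It was far higher, at 101.8 ± 9.36 CPM in control islets and 71.2 ± 10.7 with both agents (log2 -0.51, SE 0.12, adjusted p = 0.0029). IL-1β lowered Gad1 (log2 -0.60, SE 0.12, adjusted p = 0.0015) and butyrate alone raised it (log2 0.45, SE 0.12, adjusted p = 0.0094). Of 16 genes of branched chain amino acid breakdown, 7 fell and 1 rose with IL-1β (median log2 -0.20) and 3 fell and 1 rose with butyrate. Bcat1, the cytosolic first enzyme of this pathway, fell from 5.33 ± 0.519 CPM in control islets to 2.47 ± 0.538 with butyrate (log2 -1.10, SE 0.15, adjusted p = 2.3e-06) and 2.30 ± 0.442 with both (log2 -1.20, SE 0.15, adjusted p = 2.1e-07). Of 13 other amino acid transporters, 1 rose and 1 fell with IL-1β and with butyrate each, and the lysosomal transporter Slc15a3, a gene of immune cells, was raised by IL-1β from 0.788 ± 0.210 to 2.56 ± 0.580 CPM (log2 1.71, SE 0.24, adjusted p = 2.3e-06) as were 10 of the 11 macrophage markers.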

How the data were processed

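RNA of islets under 4 conditions, 4 libraries each, was read single-end. The authors deposited 1 table of raw counts per gene. Per the labels and the methods of the study, reads were demultiplexed with bcl2fastq 2.19.1, checked with FastQC 0.11.7 and MultiQC 1.7, and aligned with STAR 2.5.3a to GRCm38.p5 (mm10). The strand setting and annotation release were not given in the sources used here, so reads of overlapping genes cannot be told apart. Of 52636 identifiers, 52489 were found in GENCODE M21, which gave symbols, positions and exon lengths.

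From the counts as deposited, edgeR 4.0.16 (R 4.3.3) with filterByExpr, TMM and the robust quasi-likelihood test was fitted on all 16 libraries, with 18587 genes tested and Benjamini-Hochberg adjustment over all of them. A gene was called at an adjusted p under 0.01. The 95% intervals come from the log2 fold change and its SE and are not adjusted. The 5 comparisons were IL-1β, butyrate and both against control, both against IL-1β, and an interaction of the 2 agents. Totals of 18635943 to 25955943 counts limit the precision for genes under 1 CPM, and Slc36a2 was too low to test. Some genes that were analysed are not reported here. Floors are 3 counts per library, for counting error only.

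The members and lists were chosen with earlier results of these data known. Every member was named, with values in every library for textbook members and for those called with a log2 change of at least 1. Genes of the pathway lists were named where called at that size, and others only as marked. The fits were tested on simulated data. Alternatives were DESeq2 size factors, upper-quartile or library-size scaling, the DESeq2 1.42.0 Wald test, 2 other filters, no robust estimation, a replicate block, an adjusted p under 0.05, and each library left out. Replicate numbers were not used as pairs in the main fit, although a library correlated best with its own number in 40 of 48 cases. The study describes 4 independent experiments on islets pooled from several mice, and p-values cover the spread between them. The labels do not say that a number marks 1 experiment across conditions. Promoters came from RefSeq tables of GRCm38.p6.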

Additional observations from a re-analysis of the deposited data

Results flagged for a closer look

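In 15 of 196 sets of 4 libraries, 1 library stood apart from the other 3 by Dixon's test, which chance alone gives in about 1 of 20 sets. With IL-1β, replicate 1 was low for Slc1a3 (0.259 CPM, the others up to 1.61) and for Slc6a19 (10.7 CPM, the others 15.5 to 16.2), replicate 2 for Slc6a5 (0.536 CPM) and replicate 3 for Slc6a15 (0.518 CPM, the others 0.779 to 0.830). In control islets, replicate 2 was high for Slc1a3 (2.29 CPM, the others 1.84 to 1.91) and low for Slc38a6 (10.3 CPM), and replicate 3 was low for Slc38a1 (0.478 CPM, the others 1.07 to 1.17). With IL-1β plus butyrate, replicate 1 was low for Slc43a1 (0.162 CPM), replicate 2 for Slc7a5 (313 CPM, the others 330 to 333), replicate 3 was high for Slc3a2 (253 CPM, the others 238 to 240) and replicate 4 for Slc6a8 (53.4 CPM, the others 45.0 to 46.3). With butyrate, replicate 1 was high for Slc6a14 (0.502 CPM, 10 counts, the others at most 0.0523), Slc7a3 (9.59 CPM) and Slc7a7 (3.11 CPM, the others 2.09 to 2.22), and replicate 2 for Slc7a2 (702 CPM, the others 658 to 663). Their causes were not tested.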

How the results depend on the processing

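Of 65 calls followed across 24 alternatives, 47 were kept in each. Without 1 library, 12 to 16 members were called for IL-1β, 10 to 16 for butyrate, 11 to 14 for butyrate added to IL-1β and 17 to 20 for both against control. The difference between the butyrate effects was called for 0 members, and for 1 at an adjusted p under 0.05, 1 with library-size scaling, 2 with DESeq2, 2 with no filter on low counts, and 0 to 2 without 1 library. Among the values followed, those that changed sign were uncalled and near 0. Slc1a5 with IL-1β was 0.064 with library-size scaling, 0.01 with no filter, and -0.082 to 0.087 without 1 library. For both agents against control, library-size scaling gave 0.016 for Slc3a2 and 0.027 for Slc7a11, and upper-quartile scaling gave 0.008 for Slc7a2 with butyrate. The causes were not tested. With the replicate block, 19, 17, 14 and 25 members were called in the 4 comparisons and 1, Slc7a3, for the difference, and it added Slc6a17, Slc38a2 and Slc38a6 to the calls for IL-1β. Same-numbered libraries correlated at 0.0535 to 0.397, over 0.1 in 17 of 24 pairs, and a library correlated best with its own number in 40 of 48 cases. The labels do not say that a number marks 1 experiment, so the main fit did not use the numbers as pairs. If they do mark experiments, the p-values of the main fit leave this pairing out, and the calls with the replicate block are those that use it. Members under 1 CPM are limited by depth.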
